A study of Mus musculus with 9 samples.

Results

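Smc1a, Smc3, Rad21 and Stag2 of cohesin, Smc2 and Smc4 of condensin, Smc5 and Smc6 of the SMC5/6 complex, the securin gene Pttg1 and the separase gene Espl1 were followed across CD8 T cells of 3 Rop7 clones. The genes were taken by their symbols from a table of 24060 genes, and all 10 were found. All 10 were also among the 12115 genes with a maximum over 1 TPM (transcripts per 1000000, a share of transcripts that is already divided by gene length), which were the genes tested. Of the 10, Espl1 passed that minimum through Rop7-III alone. The members were proposed because Smc6 and Pttg1 differ from their partners in these data, so the ratios between partners are given as a description with no test.

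The cells came from the transnuclear mouse strains Rop7-I, Rop7-II and Rop7-III. Each strain was made by somatic cell nuclear transfer from a CD8 T cell whose T-cell receptor binds a peptide of the Toxoplasma protein Rop7 on H-2Ld, and was backcrossed onto BALB/c. The paper describes the cells of this experiment as homozygous, and the age and sex of the mice are not given in the sources used here. In every group, unstimulated splenocytes spent 1 night in medium with 10 ng/ml of IL-2 and no antigen, after which sorting for CD3, CD8 and H-2Ld-Rop7 binding gave cells of a stated purity of 90 to 95%. Each clone had 3 samples labelled as biological replicates, 9 in all, and no source says that they came from separate mice, so p values measure the spread between these samples. A strain derives from 1 donor nucleus, and its receptor cannot be told apart here from anything else that the strain inherited.

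SMC proteins are long coiled-coil ATPases that work in pairs. Cohesin is a ring of Smc1a, Smc3 and the kleisin Rad21, with Stag2 bound to Rad21, and it holds sister chromatids together and shapes chromatin loops in dividing and resting cells. Condensin, built on Smc2 and Smc4, compacts chromosomes for mitosis, and the SMC5/6 complex acts in DNA repair and in the silencing of foreign DNA. Securin (Pttg1) binds and inhibits separase (Espl1), the protease that cuts Rad21 at anaphase once the anaphase-promoting complex has marked securin for destruction. Transcripts of securin and separase are typical of cells that divide, whereas cohesin is also made in resting lymphocytes.

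The stretches before a RefSeq start of Smc6, Pttg1 and Espl1 are shown because these 3 genes gave the largest differences between clones. They were read 5′ to 3′ on the strand of the gene from RefSeq promoters of GRCm38.p6, a table that held 7 of the 10 genes and no entry for Rad21, Stag2 or Smc4. Capitals mark matches to TTTGAA (a core of the cell cycle homology region), TTTNNCGC (an E2F-type site) or CCAAT on either strand, searched in the 150 bases before the RefSeq start. For Smc6, the 84 bases shown are those between its start and the GENCODE M21 start of the oppositely oriented gene Gen1, at chr12:11265802-11265885 on the plus strand, a stretch that lies inside the longer RefSeq model of Gen1. For Pttg1, the 150 bases lie at chr11:43425982-43426131 on the minus strand. This stretch is wholly inside the RefSeq gene model of Pttg1, which runs from 43420244 to 43427463, and other transcript models of the gene start further upstream. For Espl1, the 141 bases lie at chr15:102296143-102296283 on the plus strand, and its RefSeq gene model begins within them, at 102296254, upstream of the start from which positions are counted here.
Smc6: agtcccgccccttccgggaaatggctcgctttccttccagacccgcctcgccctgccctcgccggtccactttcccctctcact
Pttg1: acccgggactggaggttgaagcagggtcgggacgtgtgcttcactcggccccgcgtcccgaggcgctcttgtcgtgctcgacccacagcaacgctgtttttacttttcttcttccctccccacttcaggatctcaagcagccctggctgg
Espl1: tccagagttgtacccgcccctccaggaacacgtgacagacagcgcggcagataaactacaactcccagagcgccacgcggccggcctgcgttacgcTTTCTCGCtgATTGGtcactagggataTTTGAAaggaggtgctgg

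Espl1 held all 3 motifs, with TTTNNCGC starting 54 bases, CCAAT 44 bases and TTTGAA 27 bases before its start, and another TTTNNCGC match 8 bases before it that is not shown. The TTTGAA match and this last one lie inside the RefSeq gene model, which begins earlier. The windows of Smc6 and Pttg1 held 0 matches. Those of Pttg1 and Smc5 lie wholly inside the RefSeq gene models, so their lack of matches does not describe the stretch before the model. Among the 7 genes with a window, 2 held TTTGAA (Espl1 and Smc2), 1 held TTTNNCGC (Espl1) and 3 held CCAAT (Espl1, Smc2 and Smc1a). Of 32851 RefSeq promoters, 9.07% held TTTGAA, 2.75% held TTTNNCGC and 24.5% held CCAAT in the same 150 bases. A match is a description of letters and not a binding site.

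The deposited TPM keep no read numbers, so that the depth of a value is not known, and between 11056 and 11494 genes were over 1 TPM in a sample. Cd3e was between 637.42 and 732.03 TPM, Cd8a between 606.43 and 839.13 TPM and Cd8b1 between 2051.96 and 2385.84 TPM, so that the markers of the labelled cell type were present in every sample. Rop7-II replicate 1 stood apart. All 14 B-cell markers and all 10 myeloid markers were highest there, with summed levels of 1006 TPM for B cells (101 to 446 TPM in the other samples) and 820 TPM for myeloid cells (135 to 334 TPM). In that sample Cd79a was at 221.32 TPM and Lyz2 at 485.32 TPM, and Cd4 at 6.75 TPM and Ncr1 at 1.19 TPM were also higher than in any other sample. The summed level of the CD4 T-cell markers was 19.1 TPM there and 2.39 to 5.37 TPM elsewhere. The clones differed in such markers too. B-cell sums were 193 to 446 TPM in Rop7-I and 101 to 170 TPM in Rop7-III, and for 11 of the 14 B-cell markers every Rop7-III sample lay below every Rop7-I sample (38.2% of all tested genes did not overlap in that pair), with a median log2 difference of -1.38 and 0 called in limma. The neutrophil genes S100a8 and S100a9 were higher in every Rop7-II sample than in any other sample. They were the only 2 of the 10 myeloid markers without overlap between Rop7-I and Rop7-II, where 35% of all tested genes did not overlap. In limma 0 of the 10 were called in any pair. NK-cell sums were 13.0 to 18.4 TPM in Rop7-I, 2.50 to 3.35 TPM in Rop7-II and 5.61 to 7.91 TPM in Rop7-III. Eomes made up most of this sum in every sample except Rop7-II replicate 1. It stood at 14.1 ± 2.88, 2.34 ± 0.796 and 6.82 ± 1.32 TPM in Rop7-I, -II and -III (SD, n = 3 each). The other genes of the list were near 0, with Ncr1 at most 1.19 TPM and Klrb1c, Klre1 and Klra8 at most 0.60, 0.19 and 0.18 TPM. The summed level of the CD8 T-cell markers was 6270 to 7001 TPM over the 9 samples and that of red-cell markers 3.11 to 570 TPM, with Hba-a1 highest in Rop7-I replicate 2, at 501.54 TPM. The part of these other markers in the differences between the clones was not tested, beyond the fits without Rop7-II replicate 1 and with the B-cell markers as a covariate that are given with the members. In such bulk samples, fewer cells of a type and less RNA per cell cannot be told apart.

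Log2(TPM + 1) was compared in the 3 pairs of clones with limma, and a gene was called at a Benjamini-Hochberg adjusted p under 0.01 over all tested genes. With Rop7-III set against Rop7-II, 4 of the 10 genes were called, Smc6, Smc4 and Espl1 higher and Pttg1 lower in Rop7-III, where 12.3% of all tested genes were called (6.39% higher and 5.89% lower). Between Rop7-III and Rop7-I, 1 of the 10 was called, Smc4 as higher in Rop7-III, against a background of 4.85% (2.58% higher and 2.28% lower). Between Rop7-I and Rop7-II, 2 of the 10 were called, Smc6 higher and Pttg1 lower in Rop7-I, against 7.53% (3.67% higher and 3.85% lower). With a 2-fold minimum as well, Smc6 and Pttg1 were called in both pairs with Rop7-II and 0 of the 10 in the other pair, where 1.7%, 0.949% and 1.06% of all tested genes were called. Smc6 and Pttg1 are also the genes for which the members were chosen, so nothing is read from these counts against the background. The F test across all clones called 3 of the 10, Smc6, Smc4 and Pttg1, against 14.1%. The samples of each clone enter 2 of the 3 pairs, so the pairs are not independent of each other. The median log2 fold change of the 10 genes was 0.04 between Rop7-III and Rop7-II, 0.02 between Rop7-III and Rop7-I and 0.02 between Rop7-I and Rop7-II, beside medians of -0.02, -0.00351 and -0.00876 over all tested genes.

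**Figure D1:**
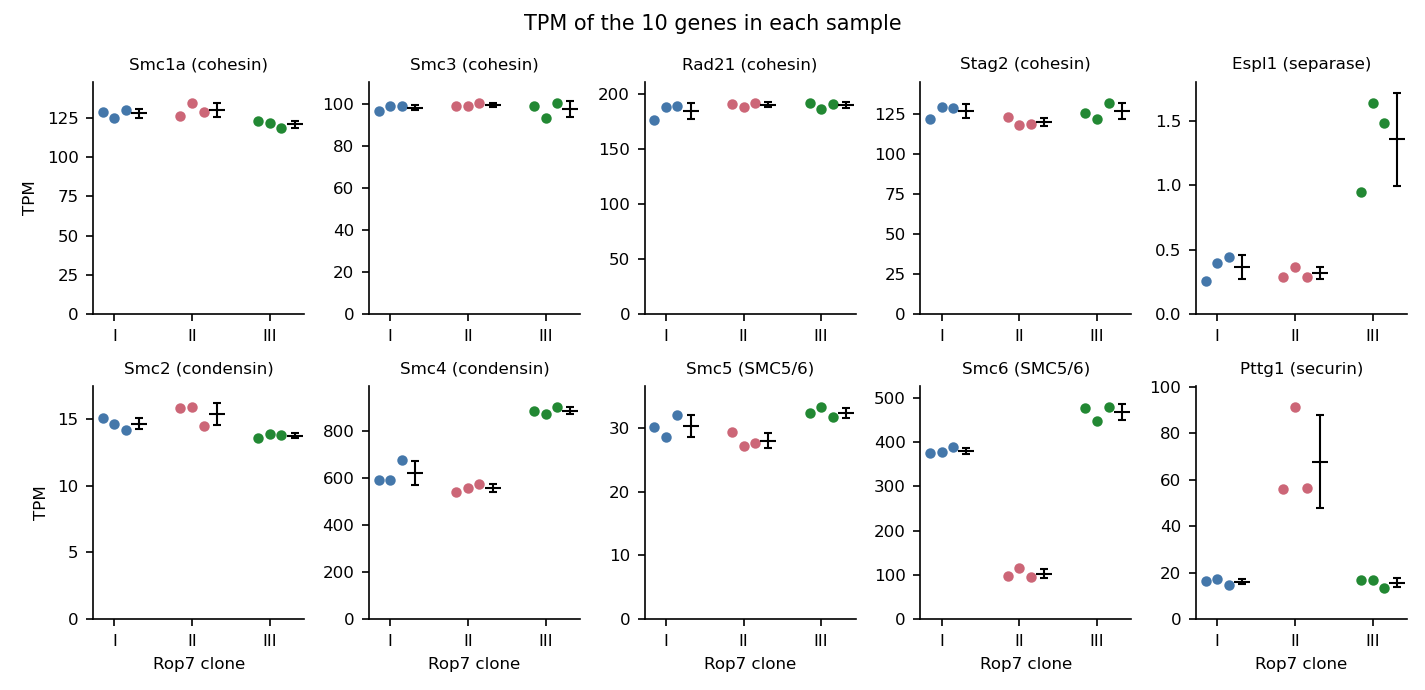
TPM of the 10 genes (vertical axes from 0, each panel with its own scale) in the 3 samples of each Rop7 clone, with points for samples and the black bar for the mean ± SD (n = 3). Smc6 was low in Rop7-II alone (97.43, 114.53 and 96.05 TPM), Pttg1 was high in the same clone, Smc4 and Espl1 were high in Rop7-III, and the 4 cohesin genes were nearly level.

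In the SMC5/6 complex, Smc6 showed the widest difference of the 10 genes while Smc5 hardly differed. Smc6 stood at 374.45, 378.33 and 388.51 TPM in Rop7-I, at 97.43, 114.53 and 96.05 TPM in Rop7-II and at 477.37, 447.58 and 478.18 TPM in Rop7-III T cells. The 3 Rop7-II samples lay far below the other 6, and Rop7-III lay above Rop7-I with no overlap. With means of 380 ± 7.26, 103 ± 10.3 and 468 ± 17.4 TPM (SD, n = 3 each), Rop7-III exceeded Rop7-II by 2.18 on the log2 scale (95% interval 2.04 to 2.32, adjusted p = 1.02e-07 in limma). Rop7-I exceeded Rop7-II by 1.88 (1.74 to 2.02, adjusted p = 2.49e-07). The smaller difference of 0.30 between Rop7-III and Rop7-I (0.16 to 0.44, adjusted p = 0.0145) missed the limit of 0.01. It was under the limit without Rop7-II replicate 2 (adjusted p = 0.00116), with sample weights (0.00421) and when only these clones were fitted (0.00187). By size of the difference, Smc6 ranked 45 of 12115 genes between Rop7-III and Rop7-II and 50 between Rop7-I and Rop7-II.

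Smc5, which pairs with Smc6 in the complex, stood at 30.20, 28.63 and 32.06 TPM in Rop7-I, at 29.34, 27.16 and 27.61 TPM in Rop7-II and at 32.39, 33.22 and 31.65 TPM in Rop7-III. Rop7-III lay above Rop7-II without overlap, and Rop7-I overlapped both. The log2 difference between Rop7-III and Rop7-II was 0.20 (95% interval 0.08 to 0.32, adjusted p = 0.0220 in limma), between Rop7-III and Rop7-I 0.10 (-0.02 to 0.22, adjusted p = 0.278) and between Rop7-I and Rop7-II 0.11 (-0.01 to 0.23, adjusted p = 0.199), so Smc5 was called in none of the 3 pairs. The ratio of Smc6 to Smc5 within a sample was 12.6 ± 0.569 in Rop7-I, 3.67 ± 0.478 in Rop7-II and 14.4 ± 0.857 in Rop7-III (SD, n = 3 each), a range of 3.32 to 15.1 over the 9 samples. TPM is per length, so both genes can be set side by side, and Smc6 was the more abundant in every sample.

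The other subunits of the complex were measured through 7 genes, of which limma called 0 in both pairs with Rop7-III (2 and 1 at an unadjusted p under 0.05) and 1 between Rop7-I and Rop7-II. The shares of all tested genes called were 12.3% (III against II), 4.85% (III against I) and 7.53% (I against II). Nsmce1, a RING-domain subunit, stood at 124 ± 3.52, 97.4 ± 7.23 and 118 ± 8.05 TPM in Rop7-I, -II and -III (SD, n = 3 each). Its log2 difference was 0.35 between Rop7-I and Rop7-II (adjusted p = 0.00538 in limma) and 0.27 between Rop7-III and Rop7-II (adjusted p = 0.0114). Ndnl2, the table's symbol for Nsmce3, was highest in Rop7-II, at 28.8 ± 0.954, 35.3 ± 2.46 and 30.3 ± 1.31 TPM, with a difference of -0.29 between Rop7-I and Rop7-II (adjusted p = 0.0102). Fam178a (Slf2) and Ankrd32 (Slf1), which bring the complex to damaged DNA, had adjusted p of 0.0913 or more in every pair. The median log2 difference over the 7 genes was -0.05 in both pairs with Rop7-III and 0.000493 in the pair without it. Smchd1 and Rad50, other ATPases with SMC-like domains, were called in none of the pairs by limma, with 0, 1 and 2 at an unadjusted p under 0.05 in the pairs III against II, III against I and I against II. Smchd1 stood at 90.0 ± 2.36, 81.1 ± 2.43 and 82.6 ± 1.88 TPM, and Rad50 at 35.5 ± 2.16, 32.3 ± 0.635 and 34.1 ± 0.856 TPM (SD, n = 3 each).

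**Figure D2:**
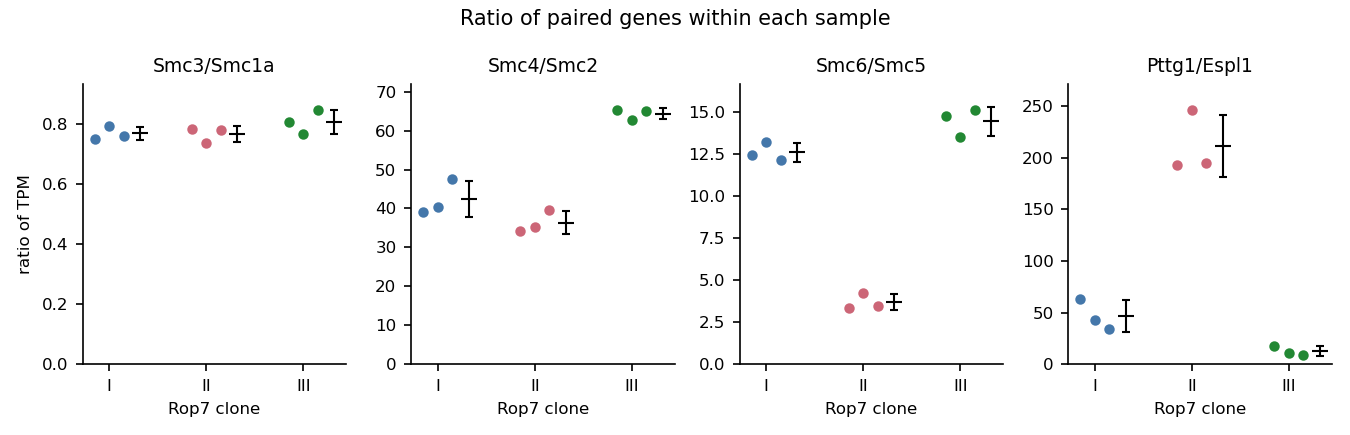
Ratio of the TPM of partner genes (vertical axes from 0) in each sample of the 3 Rop7 clones, with points for samples and the black bar for the mean ± SD (n = 3). The ratio of Smc3 to Smc1a stayed between 0.735 and 0.847, that of Smc6 to Smc5 was lowest in Rop7-II, that of Smc4 to Smc2 was highest in Rop7-III, and that of Pttg1 to Espl1 was highest in Rop7-II.

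Securin moved the other way. Pttg1 stood at 16.52, 17.08 and 14.81 TPM in Rop7-I, at 55.86, 91.19 and 56.64 TPM in Rop7-II and at 16.84, 17.05 and 13.36 TPM in Rop7-III T cells. Each Rop7-II sample lay above all 6 others, and Rop7-I and Rop7-III overlapped. Within Rop7-II the values also varied most, replicate 2 being the highest, and the mean was 67.9 ± 20.2 TPM beside 16.1 ± 1.18 in Rop7-I and 15.8 ± 2.07 in Rop7-III (SD, n = 3 each). The log2 difference of Rop7-III from Rop7-II was -2.01 for Pttg1 (95% interval -2.40 to -1.62, adjusted p = 7.09e-05 in limma) and that of Rop7-I from Rop7-II was -1.97 (-2.36 to -1.58, adjusted p = 1.32e-04). Between Rop7-III and Rop7-I the difference was -0.04, with an interval of -0.43 to 0.35 (adjusted p = 0.916). It ranked 58 of 12115 genes by size between Rop7-III and Rop7-II and 43 between Rop7-I and Rop7-II. Without Rop7-II replicate 1 the differences from Rop7-II were -2.13 for Rop7-III and -2.09 for Rop7-I in Pttg1, and 2.15 and 1.85 in Smc6. With the B-cell markers as a covariate they were -2.11 and -1.94 in Pttg1 and 2.15 and 1.90 in Smc6. Without Rop7-II replicate 2, those of Pttg1 were -1.78 (adjusted p = 2.55e-05) and -1.74 (3.35e-05).

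Separase was scarce. Espl1 stood at 0.26, 0.40 and 0.44 TPM in Rop7-I, at 0.29, 0.37 and 0.29 TPM in Rop7-II and at 0.95, 1.64 and 1.48 TPM in Rop7-III. Every Rop7-III sample lay above the other 6, and Rop7-I and Rop7-II overlapped. The mean was 1.36 ± 0.361 TPM in Rop7-III, beside 0.367 ± 0.0945 for Rop7-I and 0.317 ± 0.0462 for Rop7-II (SD, n = 3 each). On the log2(TPM + 1) scale, which understates the difference of so low a gene, Rop7-III exceeded Rop7-II by 0.83 (95% interval 0.43 to 1.22, adjusted p = 0.00851 in limma) and Rop7-I by 0.78 (0.38 to 1.17, adjusted p = 0.0204). Rop7-I and Rop7-II differed by 0.05 (-0.34 to 0.45, adjusted p = 0.874). Since Espl1 reached 1 TPM in Rop7-III alone, it was tested only because it is high there, and the call is given as a description. With no filter the adjusted p for Rop7-III against Rop7-II was 0.00844. The call was lost in 11 of 19 alternatives. These were the fits without any 1 sample other than Rop7-III replicate 1 (adjusted p of 0.0117 to 0.0366 in limma, the highest without Rop7-III replicate 2), with the replicate number as a block (0.0178), with sample weights (0.0137) and with only the clones compared (0.0204). The size of the difference lay between 0.74 and 1.78 over the alternatives. Securin transcripts outnumbered separase transcripts in every sample, by a ratio of 46.6 ± 15.3 in Rop7-I, 211 ± 30.3 in Rop7-II and 12.4 ± 4.68 in Rop7-III (SD, n = 3 each).

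**Figure D3:**
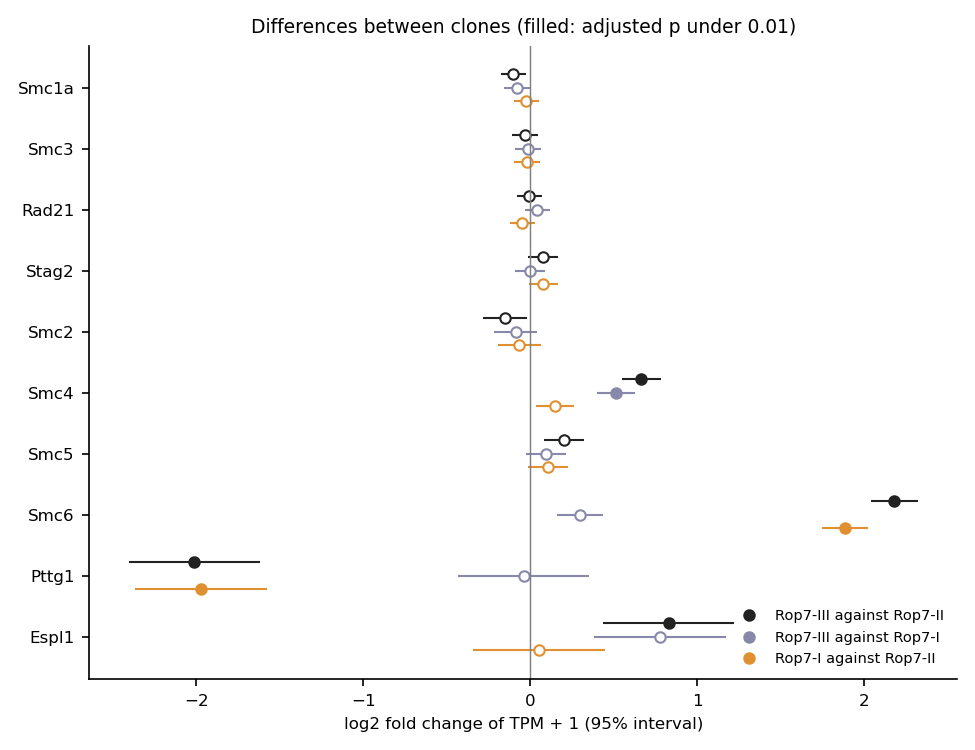
Log2 fold change of TPM + 1 with its 95% interval (horizontal axis) for the 10 genes in the 3 pairs of clones (limma, 9 samples), filled where the adjusted p was under 0.01. Smc6 and Pttg1 lie near 2 and -2 in both pairs with Rop7-II, Smc4 lies at 0.67 and 0.52 in both pairs with Rop7-III, and the cohesin genes lie close to 0.

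Of the genes that act on securin and separase, the anaphase-promoting complex, its activators and the spindle checkpoint, 33 of 34 were tested (not Bub1). For Rop7-III against Rop7-II, limma called 2 higher and 2 lower (11 and 3 at an unadjusted p under 0.05). The share called was 12.1%, near the 12.3% of all tested genes, with a median of 0.03. For Rop7-III against Rop7-I it called 2 higher and 0 lower (15 and 1 at an unadjusted p under 0.05), which is 6.06% beside 4.85%, with a median of 0.07. For Rop7-I against Rop7-II it called 0 higher and 2 lower (1 and 7), which is 6.06% beside 7.53%, with a median of -0.04. Birc5 (survivin, of the chromosomal passenger complex) stood at 2.59 ± 0.234, 1.92 ± 0.133 and 7.04 ± 1.19 TPM in Rop7-I, -II and -III, and rose in Rop7-III by 1.45 over Rop7-II (adjusted p = 7.64e-05 in limma) and 1.15 over Rop7-I (6.41e-04). The checkpoint kinase gene Bub1b stood at 0.233 ± 0.0929, 0.223 ± 0.162 and 1.81 ± 0.418 TPM, with adjusted p of 0.00190 against Rop7-II and 0.00421 against Rop7-I in limma. Like Espl1, it reached 1 TPM in Rop7-III alone and was tested only because it is high there. Among the 30 genes of the list that reached 1 TPM in 2 or 3 clones, a count made after seeing the data, 1 was called higher and 2 lower in Rop7-III against Rop7-II, and 1 higher and 0 lower against Rop7-I.

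Mad1l1, which recruits the checkpoint protein Mad2 to kinetochores, was high in Rop7-II, at 30.1 ± 2.53, 45.1 ± 4.28 and 26.3 ± 1.47 TPM in Rop7-I, -II and -III (SD, n = 3 each). The difference from Rop7-II was -0.75 in Rop7-III (adjusted p = 2.72e-04 in limma) and -0.57 in Rop7-I (0.00196). Anapc16, a small subunit of the anaphase-promoting complex, was also highest in Rop7-II, at 94.1 ± 2.21 TPM, with differences of -0.19 (adjusted p = 0.00376) and -0.26 (0.00108) in the same pairs. Without Rop7-II replicate 1, the call of Anapc16 between Rop7-III and Rop7-II was lost (-0.17, adjusted p = 0.0112 in limma) and that between Rop7-I and Rop7-II remained (-0.24, 0.00323). In the same fit, 4 genes of the list in place of 2 were called higher in Rop7-III against Rop7-I. Cdc20, the activator that targets securin, stood at 13.4, 12.2 and 12.7 TPM, and Pttg1ip, which encodes a securin-binding protein, at 111, 119 and 114 TPM in Rop7-I, -II and -III (means of n = 3), and both were called in none of the pairs. Cdc20 and Pttg1ip were picked from the list after their values were seen.

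Of the condensin subunit genes, Smc4 was called, in both pairs with Rop7-III. Smc4 stood at 590.61, 590.85 and 676.62 TPM in Rop7-I, at 540.18, 557.75 and 573.26 TPM in Rop7-II and at 884.44, 868.77 and 898.17 TPM in Rop7-III T cells. The Rop7-III samples were all above the other 6, and Rop7-I was above Rop7-II by a narrow gap. The means were 619 ± 49.6, 557 ± 16.6 and 884 ± 14.7 TPM (SD, n = 3 each), the highest level of the 10 genes in each clone. Rop7-III exceeded Rop7-II by 0.67 on the log2 scale (95% interval 0.55 to 0.78, adjusted p = 4.00e-05 in limma) and Rop7-I by 0.52 (0.40 to 0.63, adjusted p = 3.45e-04). Rop7-I and Rop7-II differed by 0.15 (0.03 to 0.27, adjusted p = 0.0736), which missed the limit.

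Smc2, its partner in both condensins, leaned the other way. It stood at 15.09, 14.65 and 14.20 TPM in Rop7-I, at 15.82, 15.85 and 14.44 TPM in Rop7-II and at 13.54, 13.87 and 13.79 TPM in Rop7-III. Rop7-III lay below both other clones without overlap, but the log2 differences of -0.15 from Rop7-II (95% interval -0.28 to -0.02, adjusted p = 0.0873 in limma) and -0.09 from Rop7-I (-0.22 to 0.04, adjusted p = 0.370) were not called. Between Rop7-I and Rop7-II, which overlapped, the difference was -0.06 (-0.19 to 0.07, adjusted p = 0.491). Smc4 transcripts thus outnumbered those of Smc2 by a ratio of 42.4 ± 4.61 in Rop7-I, 36.3 ± 2.95 in Rop7-II and 64.4 ± 1.50 in Rop7-III (SD, n = 3 each), per length.

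The other 6 condensin subunit genes were called in none of the 3 pairs by limma (3, 4 and 0 at an unadjusted p under 0.05, all higher in Rop7-III). Their median differences were 0.38 between Rop7-III and Rop7-II, 0.45 between Rop7-III and Rop7-I and -0.02 between Rop7-I and Rop7-II. With 12.3%, 4.85% and 7.53% of all tested genes called in these pairs, nothing is read from 0 calls among 6 genes. Against Rop7-II, 5 of the 6 had a difference above 0 in Rop7-III and 1 did not overlap. Against Rop7-I, all 6 had a difference above 0 and 4 did not overlap. Of all tested genes, 40.7% and 38.2% did not overlap in these 2 pairs. The 4 genes with the smallest p in the F test were low or middling in level. Ncapg of condensin I, which reached 1 TPM in Rop7-III alone, stood at 0.310 ± 0.102, 0.267 ± 0.257 and 1.29 ± 0.546 TPM in Rop7-I, -II and -III (adjusted p = 0.0259 in limma for a difference of 0.85 between Rop7-III and Rop7-II, without overlap), and Ncapd2 at 16.2 ± 1.24, 19.6 ± 5.71 and 27.2 ± 8.29 TPM, with clones III and II overlapping. Ncaph, the kleisin of condensin I, stood at 2.79 ± 0.436, 3.09 ± 0.520 and 4.09 ± 0.567 TPM, and Ncapg2 of condensin II at 0.913 ± 0.139, 0.867 ± 0.363 and 1.68 ± 0.487 TPM. Ncapd3 and Ncaph2 of condensin II, with means between 92.7 and 112 TPM, had log2 differences between -0.07 and 0.04 in all pairs.

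Markers of proliferation moved with Smc4 and Espl1. All 14 markers were tested, and limma called 10 as higher in Rop7-III against Rop7-II, 6 as higher against Rop7-I and 0 between Rop7-I and Rop7-II (14, 13 and 1 at an unadjusted p under 0.05), with medians of 0.90, 0.90 and 0.03. The shares called were 71.4%, 42.9% and 0%, beside 12.3%, 4.85% and 7.53% of all tested genes. Of the 14, Tpx2, Cenpf, Aspm and Cenpe reached 1 TPM in Rop7-III alone and were tested only because they are high there. Among the other 10, the calls were 7, 5 and 0, with medians of 0.83, 0.92 and 0.07. Without Rop7-II replicate 1, 8 of the 14 (5 of the 10) were higher against Rop7-II and 9 (6 of the 10) against Rop7-I. Stmn1, at 113.6 to 182.12 TPM, overlapped between the clones and was not called, and it made up most of the summed level of the list. The sum of the other 13 was 27.3 to 32.8 TPM in Rop7-I, 25.5 to 27.2 TPM in Rop7-II and 52.8 to 71.3 TPM in Rop7-III samples. Among them were Top2a (log2 difference 2.17 from Rop7-II, adjusted p = 9.08e-05), Mki67 (1.96, 1.91e-04), Nusap1 (1.52, 2.21e-04), Ccna2 (1.32, 0.00662), Tpx2 (1.05, 0.00341) and Rrm2 (0.90, 0.00106). Their part in the levels of Smc4 and Espl1 was not tested. Between Rop7-I and Rop7-II, where Pttg1 and Smc6 were called, 0 of the 14 markers were, beside 7.53% of all tested genes. The means of Mki67 were 1.96, 1.42 and 8.52 TPM and those of Top2a 1.89, 1.02 and 8.15 TPM in Rop7-I, -II and -III. Between Rop7-I and Rop7-II, 9 of the 14 markers had a log2 difference above 0 and 5 below. Of the 14, only Top2a did not overlap, being higher in Rop7-I (0.53, adjusted p = 0.0994 in limma), where 35% of all tested genes did not overlap. The sum of the 13 without Stmn1 was also higher in Rop7-I, by a narrow gap.

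**Figure D4:**
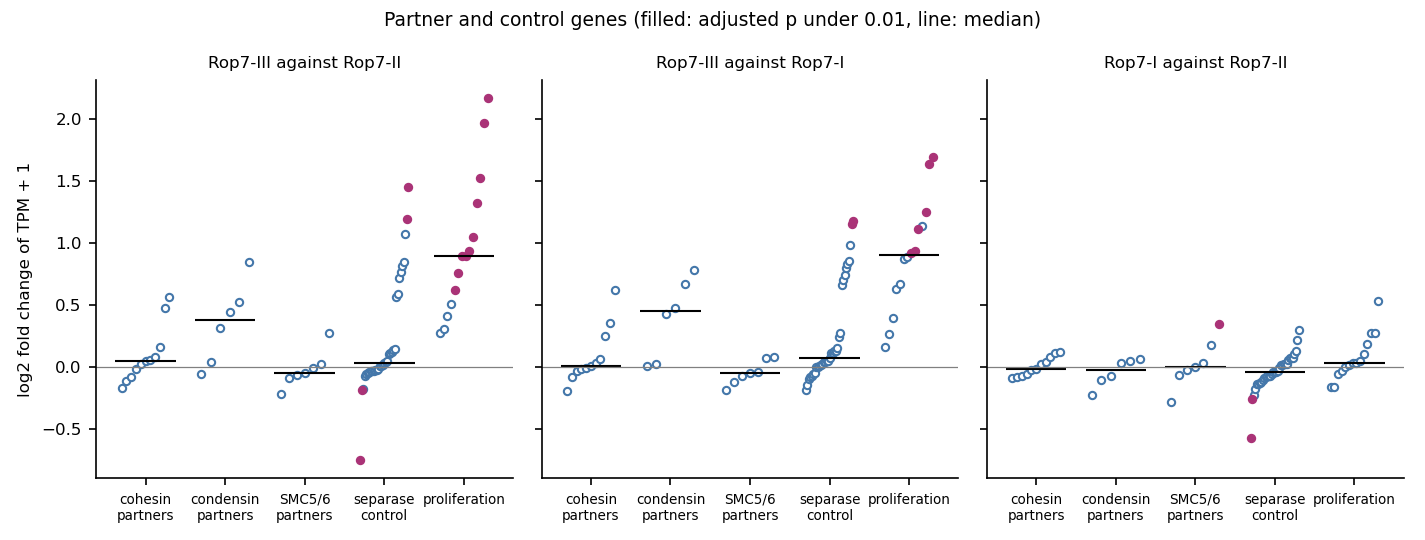
Log2 fold change of TPM + 1 (vertical axis) of the tested partner and control genes in the 3 pairs of clones, filled where the adjusted p in limma was under 0.01, with a bar at each list's median. Of the 14 proliferation markers, 10 and 6 were called in the pairs III against II and III against I, and 0 in the other pair. Of these 14, 4 reached 1 TPM in Rop7-III alone. The 11 cohesin and 6 condensin partners gave 0 calls. In the same pairs 12.3%, 4.85% and 7.53% of all tested genes were called, so nothing is read from 0 calls in lists this short.

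The cohesin ring was nearly level across the clones. Smc1a ranged from 118.69 to 134.74 TPM over the 9 samples, Smc3 from 93.08 to 100.48 TPM, Rad21 from 176.11 to 192.12 TPM and Stag2 from 117.76 to 131.83 TPM. None of the 4 was called in any pair by limma (1, 1 and 0 at an unadjusted p under 0.05, Smc1a in both cases), and each of their 95% intervals lay between -0.18 and 0.17 on the log2 scale. Smc1a was the nearest to a call. It stood at 128.61, 124.93 and 130.06 TPM in Rop7-I, at 126.20, 134.74 and 128.83 TPM in Rop7-II and at 122.92, 121.51 and 118.69 TPM in Rop7-III, so that Rop7-III lay below both other clones. The log2 difference was -0.10 from Rop7-II (adjusted p = 0.0555 in limma) and -0.08 from Rop7-I (0.165). Smc3 means were 98.2 ± 1.36, 99.4 ± 0.935 and 97.5 ± 3.90 TPM and Rad21 means 184 ± 7.16, 190 ± 2.04 and 190 ± 2.76 TPM in Rop7-I, -II and -III (SD, n = 3 each), with overlap in every pair. Stag2 means were 126 ± 4.24, 120 ± 2.67 and 126 ± 5.04 TPM, and the adjusted p of Stag2 was 0.180 or more in every pair.

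Within samples, the proportions of the ring varied little. The ratio of Smc3 to Smc1a was 0.768 ± 0.0213, 0.766 ± 0.0265 and 0.806 ± 0.0403 in Rop7-I, -II and -III, and that of Rad21 to Smc3 was 1.88 ± 0.0474, 1.92 ± 0.0179 and 1.95 ± 0.0552 (SD, n = 3 each), with all clones overlapping in both. That of Rad21 to Smc1a was 1.44 ± 0.0679, 1.47 ± 0.0620 and 1.57 ± 0.0346, with Rop7-III above both others, and that of Stag2 to Rad21 was 0.686 ± 0.00480, 0.629 ± 0.0129 and 0.666 ± 0.0223, with Rop7-II below both others. Counting all 10 genes, 7 did not overlap between Rop7-III and Rop7-II, 5 between Rop7-III and Rop7-I and 3 between Rop7-I and Rop7-II, where 40.7%, 38.2% and 35% of all tested genes did not overlap.

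Loaders, releasers and modifiers of cohesin gave 0 calls in limma among 11 tested genes of 13 in each of the 3 pairs (6, 4 and 2 at an unadjusted p under 0.05), with medians of 0.05, 0.00405 and -0.02. As 12.3%, 4.85% and 7.53% of all tested genes were called, nothing is read from 0 of 11. Without overlap, 3 of the 11 lay higher and 3 lower in Rop7-III against Rop7-II, and 3 higher and 1 lower against Rop7-I. Of all tested genes, 40.7% and 38.2% did not overlap in these 2 pairs. Esco2 and Sgol1, both of dividing cells, reached at most 0.94 and 0.99 TPM and were not tested. In both genes every Rop7-III sample lay above every sample of the other clones. Means in Rop7-I, -II and -III were 0.157, 0.220 and 0.747 TPM for Esco2 and 0.213, 0.423 and 0.930 TPM for Sgol1. Nipbl, which loads cohesin, was between means of 118 and 124 TPM, and Wapal (Wapl), which releases it, between 106 and 109 TPM. Those with the smallest p in the F test were Pds5a, at 119 ± 3.70, 113 ± 5.12 and 104 ± 4.79 TPM in Rop7-I, -II and -III, and the cohesin deacetylase gene Hdac8, at 20.4 ± 0.827, 21.8 ± 1.55 and 24.4 ± 0.759 TPM (SD, n = 3 each). Stag1, which takes the place of Stag2 in some rings, followed at 44.9 ± 0.631, 47.6 ± 1.91 and 42.4 ± 2.21 TPM. Next was Sgol2, a protector of centromeric cohesin, at 0.723 ± 0.116, 0.587 ± 0.0252 and 1.21 ± 0.156 TPM. Like Espl1, Sgol2 reached 1 TPM in Rop7-III alone and was tested only because it is high there. It is among the genes at an unadjusted p under 0.05 in both pairs with Rop7-III. Of the other 10 tested genes of the list, limma called 0 in each pair. Nipbl and Wapal were picked after their values were seen. Of the meiotic cohesin genes, only Stag3 passed 1 TPM, at 2.26 ± 0.986, 0.830 ± 0.563 and 3.19 ± 0.844 TPM, and its difference of 1.22 between Rop7-III and Rop7-II missed the limit (adjusted p = 0.0112). Smc1b and Rec8 reached at most 0.09 and 0.20 TPM, and Rad21l was listed at 0 in every sample.

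Genes within 1 Mb of the members were examined at their RefSeq positions on GRCm38.p6. Smc6 lies on chromosome 12 from 11265886 to 11319785, with 4 tested genes within 1 Mb. Msgn1, whose gene starts 56.9 kb to its left and which encodes a transcription factor of the embryonic mesoderm, stood at 32.05, 34.70 and 37.91 TPM in Rop7-I, at 3.51, 5.01 and 2.16 TPM in Rop7-II and at 47.76, 44.06 and 53.29 TPM in Rop7-III. Its clones had the same order as those of Smc6 and did not overlap. Msgn1 exceeded Rop7-II by 3.48 in Rop7-III (adjusted p = 7.18e-06 in limma) and by 3.02 in Rop7-I (1.76e-05). Gen1, a Holliday junction resolvase gene whose RefSeq model starts 0.143 kb inside Smc6 on the other strand, stood at 7.87 ± 0.681, 5.16 ± 0.320 and 6.45 ± 1.40 TPM (SD, n = 3 each). Its differences of 0.52 between Rop7-I and Rop7-II (adjusted p = 0.0226) and 0.26 between Rop7-III and Rop7-II (0.173) were not called. The libraries were not strand-specific, so reads from the stretch that both models cover could belong to either gene. On the right, the nearest tested gene was Fam49a, 942 kb away and called in none of the pairs.

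Pttg1 lies on chromosome 11 from 43420244 to 43427463, and 0 of its 4 tested neighbours within 1 Mb were called in any pair by limma, with 0 at an unadjusted p under 0.05. Slu7, a splicing factor gene 6.26 kb away, stood at 78.4 ± 3.17, 80.0 ± 2.86 and 79.2 ± 0.815 TPM in Rop7-I, -II and -III (SD, n = 3 each), with all clones overlapping. The nearest tested gene on the other side, Ccng1, was 2665 kb away and was called in none of the pairs.

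Smc4 lies on chromosome 3 from 69004738 to 69034623, between Ift80, which ends 58 bases before it, and Trim59, which begins 0.669 kb after it. Trim59, a membrane-bound ubiquitin ligase gene, stood at 29.3 ± 0.351, 20.8 ± 1.86 and 31.4 ± 0.718 TPM in Rop7-I, -II and -III (SD, n = 3 each). It exceeded Rop7-II by 0.57 in Rop7-III (adjusted p = 2.59e-04 in limma) and by 0.48 in Rop7-I (0.00117), so that its low clone was Rop7-II, whereas in Smc4 Rop7-III stood out. Ift80 stood at 97.2 ± 10.7, 106 ± 3.74 and 117 ± 1.27 TPM and was not called. The only other call among its 7 tested neighbours was 1110032F04Rik, with a difference of 1.62 between Rop7-III and Rop7-II (adjusted p = 0.00144). Espl1 lies on chromosome 15 from 102296254 to 102324357. Of its 28 tested neighbours, Itgb7, Rarg and Cbx5 were called lower in Rop7-III against Rop7-II, the reverse of Espl1, with differences of -0.60, -0.80 and -0.35 (adjusted p of 2.63e-04, 4.99e-05 and 9.74e-04). Its adjacent tested genes Mfsd5 (14.5 kb) and Pfdn5 (1.76 kb) were not called in that pair.

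**Figure D5:**
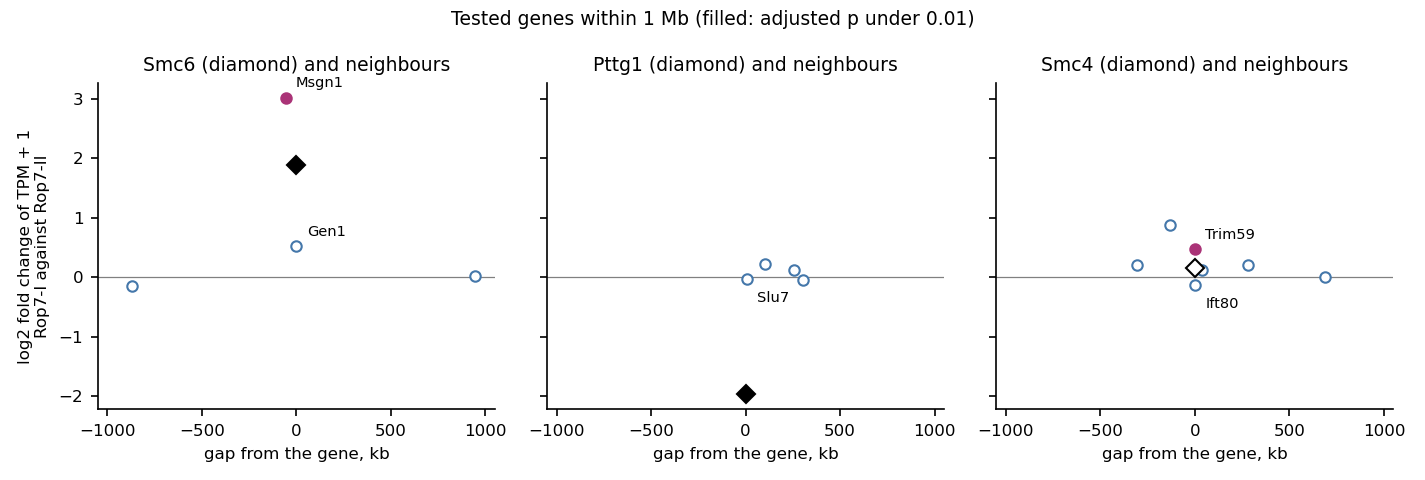
Log2 fold change of TPM + 1 between Rop7-I and Rop7-II (vertical axis) of tested genes within 1 Mb of Smc6, Pttg1 and Smc4, by the gap between gene models in kb (horizontal axis), with the member as a diamond and symbols filled where the adjusted p was under 0.01. Msgn1, at 3.02, is the only called neighbour of Smc6, 0 of 4 neighbours of Pttg1 were called, and Trim59 is called beside an uncalled Smc4.

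Among the genes most like Smc6 over the 9 samples, by Pearson's r of log2(TPM + 1), were Tspan13 (r = 0.996) and Col6a4 (0.996). Tspan13 stood at 321 ± 5.40, 212 ± 10.5 and 352 ± 1.91 TPM in Rop7-I, -II and -III (SD, n = 3 each), and Col6a4 at 2.58 ± 0.147, 0.0133 ± 0.0115 and 3.37 ± 0.417 TPM. Those most like Pttg1 were Abhd14b (r = 0.986), Limd2 (0.984) and Rara (0.984). Abhd14b stood at 0.557 ± 0.131, 21.2 ± 2.84 and 0.477 ± 0.327 TPM, Limd2 at 792 ± 6.20, 924 ± 32.4 and 787 ± 14.4 TPM and Rara, a retinoic acid receptor gene, at 79.8 ± 1.47, 93.2 ± 3.40 and 81.1 ± 2.54 TPM. The r of Pttg1 with Smc6 was -0.956. These correlations rest on 9 samples in 3 clones and share the contrast of Rop7-II with the other clones, so they describe the order of the clones and carry no p.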

How the data were processed

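RNA-seq was made from poly(A) RNA (200 ng per sample, TruSeq, not strand-specific, single-end) of sorted CD8 T cells. The authors aligned reads and counted genes with RSEM 1.2.11 against RefSeq genes of mm10 and deposited TPM values, which are divided by gene length and sum to between 1000000 and 1000001 per sample. The paper gives an approximate read number as typical of a sample. TPM keep no counts, so the exact depth of each sample is not known and counting error could not be given. The authors tested counts with DESeq2 1.8.1 after removing genes with a maximum TPM of 1.

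Here the same filter left 12115 of 24060 genes (7126 were at 0 in every sample), and 0 columns were without a sample. Log2(TPM + 1) of all 9 samples was fitted with limma 3.58.1 in R 4.3.3, by clone, letting the spread follow mean expression (limma's trend), with no block. Fold changes on this scale understate low genes. P values were adjusted by Benjamini-Hochberg within each pair, with a limit of 0.01, and an F test across clones used the same fit. The script was tested on simulated data. Samples were grouped by their titles, and at most 1.06% of tested genes had identical values in a pair of samples.

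Members and lists were chosen with earlier results of these data known. Besides the members, the genes named were up to 4 genes per list with the smallest p in the F test and those called with a 2-fold difference, the 3 genes most like Pttg1 and Smc6, and the nearest tested genes of called members with called genes within 1 Mb. Some genes that this rule names are not reported here. The lists were partners of cohesin, meiotic cohesin, condensin and SMC5/6, SMC-related ATPases, securin and separase control, proliferation, and markers of CD8 T, B, myeloid, CD4 T, NK and erythroid cells. RefSeq GRCm38.p6 gave positions for 12055 tested genes. As alternatives, 0.1 or 0.5 was added in place of 1, low genes were kept, or required to reach 1 TPM in all samples, and the others were a common median, quantile normalization, no trend, sample weights, B-cell markers as a covariate, only the clones compared, a replicate block, each sample left out, an adjusted p under 0.05 and a 2-fold minimum.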

Additional observations from a re-analysis of the deposited data

How the results depend on the processing

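Of the 30 differences of the members (10 genes in 3 pairs), 27 kept their direction where called and their side of the limit of 0.01 under each of the 19 or 20 alternatives that refitted the values, 0 reversed, and the exceptions were Smc6 between Rop7-III and Rop7-I and Espl1 in both pairs with Rop7-III, which also passed the limit against Rop7-I without the trend (adjusted p = 0.00616 in limma). Another limit changed calls too, as Smc5 (Rop7-III against Rop7-II) passed 0.05 and Smc4 did not reach 2-fold. Between Rop7-III and Rop7-II the number of members called was 2 with a 2-fold minimum in place of 4, 5 at an adjusted p under 0.05, and 3 to 4 with a sample left out. Between Rop7-III and Rop7-I it was 2 in place of 1 without the trend, with sample weights and with only the clones compared, 3 at an adjusted p under 0.05, 0 with the 2-fold minimum (limma, 4 of the 10 at an unadjusted p under 0.05) and 1 to 2 with a sample left out. Between Rop7-I and Rop7-II it stayed at 2. In the F test it was 5 in place of 3 at an adjusted p under 0.05, and 3 to 4 with a sample left out. Across the alternatives Smc6 lay between 2.14 and 2.26 (Rop7-III against Rop7-II) and between 1.84 and 1.96 (Rop7-I against Rop7-II), Pttg1 between -2.13 and -1.78 and between -2.09 and -1.74, and Smc4 between 0.64 and 0.70 and, against Rop7-I, between 0.48 and 0.58.

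The number of all genes called, the background of these counts, moved more. Between Rop7-III and Rop7-II it was 1488, and 811 with no filter, 839 with only the clones compared, 3041 at an adjusted p under 0.05, 206 with the 2-fold minimum and 811 to 1279 with a sample left out. Between Rop7-III and Rop7-I it was 588, and 212, 1586 and 128 with no filter, the limit of 0.05 and the 2-fold minimum, 1062 with sample weights and 240 to 786 with a sample left out. For Rop7-I against Rop7-II it was 912, and 399, 2163 and 115 in the same order, 600 without the trend, 356 with only the clones compared and 409 to 811 with a sample left out. In the F test it was 1707, and 767 with no filter, 3639 at the limit of 0.05 and 977 to 1643 with a sample left out. The cause of these shifts was not tested. Without Rop7-II replicate 1, an alternative chosen after seeing the data, the call counts of the partner lists moved only as given with the lists. Among the marker lists, 1 B-cell marker and 1 gene of the NK-cell list (Eomes) became lower in Rop7-III against Rop7-I. In Rop7-I against Rop7-II, 1 B-cell marker became higher and 1 CD8 T-cell marker in place of 2 was lower (limma).

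Same-numbered samples of the clones had correlations of their deviations between -0.388 and 0.106, so the numbers were not taken to pair samples. With the replicate block, 3, 1 and 2 members were called in the 3 pairs in place of 4, 1 and 2, Espl1 being the gene lost and the call of no other member changing, and the count of all genes between Rop7-III and Rop7-I was 373. Espl1 had no value where each sample had to reach 1 TPM, since it was filtered out there. TPM hold no read numbers, which limits the low genes Espl1, Ncapg and Bub1b most.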
